A study of Homo sapiens with 15 samples.

Results

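CITED2, SERTAD3, ZNF217 and RAB3A are 4 genes whose RNA fell within 1 h or 3 h of p300 inhibition in a myeloma line, and the later libraries show whether and when each came back. They were chosen by that measured fall against DMSO, out of 26364 gene rows in the deposited table, of which 12002 were tested here because their mean over all libraries was at least 1 TPM (transcript abundance already divided by transcript length and library size). All 4 were among the tested genes. The falls at 1 h and 3 h are therefore given as a description with no test, and the tests concern 6 h and 24 h. The DMSO libraries took part in the choice of the genes, so the tests of 6 h and 24 h against DMSO are not independent of it. The comparison of 24 h with 6 h uses libraries that the rule of choice did not name. The genes were still proposed with the later times known, so that comparison is not independent of the choice either. The cells were RPMI-8226, an established line grown from human multiple myeloma and labelled wild type, and KB528 is named in the labels as an inhibitor of the lysine acetyltransferase (KAT) activity of p300. Cells received 100 nM KB528 for 1, 3, 6 or 24 h, or DMSO, given as 0 h, with 3 libraries in each of the 5 groups and 15 in all. The labels do not say whether the 3 libraries of a group were grown as separate cultures, so the p-values reflect spread between libraries that may be technical replicates. Each treated group was compared with the same 3 DMSO libraries, taken at 1 time, so that time in culture and handling cannot be told apart from KB528 in those comparisons.

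p300, encoded by EP300, and its relative CBP, encoded by CREBBP, are coactivators that acetylate histones at enhancers and promoters and dock transcription factors through several binding domains. CITED2 encodes a small nuclear protein that binds the CH1 domain of p300 and CBP, where it competes with the hypoxia factor HIF-1alpha, and its own gene is a HIF target. SERTAD3 encodes a SERTA-domain transcriptional coregulator, known also as a partner of replication protein A. ZNF217 encodes a zinc finger protein that recruits CtBP and CoREST corepressors and is amplified in several carcinomas. RAB3A encodes a small GTPase of the Rab family that acts in regulated exocytosis and is best known from neurons.

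The promoters of the 4 genes are shown because the genes lost RNA together early. Each line gives the 250 bases before the annotated start from RefSeq (GRCh38.p14), 5′ to 3′ on the gene's own strand, which is the minus strand for all 4. Capitals mark matches to the motifs searched. CITED2 lies at chr6:139374649-139374898 (the first of 3 annotated starts), SERTAD3 at chr19:40444336-40444585, ZNF217 at chr20:53593840-53594089 and RAB3A at chr19:18204043-18204292.
CITED2: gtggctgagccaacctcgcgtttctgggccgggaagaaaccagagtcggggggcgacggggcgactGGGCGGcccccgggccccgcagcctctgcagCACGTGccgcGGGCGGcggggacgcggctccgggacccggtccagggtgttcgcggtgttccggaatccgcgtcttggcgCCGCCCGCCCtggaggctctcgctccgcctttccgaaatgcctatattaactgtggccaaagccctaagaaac
SERTAD3: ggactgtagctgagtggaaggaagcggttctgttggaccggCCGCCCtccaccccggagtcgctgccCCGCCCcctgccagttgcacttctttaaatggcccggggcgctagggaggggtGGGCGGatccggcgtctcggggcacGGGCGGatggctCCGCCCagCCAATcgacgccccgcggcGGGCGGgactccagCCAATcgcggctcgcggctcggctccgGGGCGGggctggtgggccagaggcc
ZNF217: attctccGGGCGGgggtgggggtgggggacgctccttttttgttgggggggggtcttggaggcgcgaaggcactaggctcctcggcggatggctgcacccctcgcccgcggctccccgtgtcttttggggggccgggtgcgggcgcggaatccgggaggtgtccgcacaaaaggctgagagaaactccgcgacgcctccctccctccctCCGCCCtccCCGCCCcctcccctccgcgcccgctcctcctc
RAB3A: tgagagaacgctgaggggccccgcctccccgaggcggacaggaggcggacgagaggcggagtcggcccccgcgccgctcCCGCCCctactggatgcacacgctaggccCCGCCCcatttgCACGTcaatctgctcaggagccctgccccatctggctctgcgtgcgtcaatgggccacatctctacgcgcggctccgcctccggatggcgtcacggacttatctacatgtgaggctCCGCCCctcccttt

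All 4 windows were rich in G and C. Counted over the full 300 bases of each window (250 before and 50 after the start), GC content was 69.3% for CITED2, 73.0% for SERTAD3, 72.3% for ZNF217 and 69.7% for RAB3A, where the median of the first window of 27305 genes was 58.3%. Both strands were searched for 11 motifs. The GC box GGGCGG was found in all 4 windows, 5 times in CITED2 (1 of them past the start), 7 times in SERTAD3 and 3 times each in ZNF217 and RAB3A, and it is present in 44.6% of all genes' first windows. The E-box CACGTG was found in CITED2, starting at -153 from the start, and in 7.43% of genes. The hypoxia response core ACGTG was found in CITED2, where it lies inside that E-box, and in RAB3A, and in 21.6% of genes. CCAAT was found at 2 places in SERTAD3 and in 35.7% of genes. TATAAA (12.0% of genes), TGACGTCA (1.98%), TGANTCA (7.76%), TTCNNNGAA (7.88%), GAAANNGA (20.5%), GGAANNGA (23.8%) and TGCTGA (17.4%) had no match in the first windows of the 4 genes. These matches are descriptions of letters, and binding there was not measured.

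Each library held 11616 to 12356 genes of at least 1 TPM, and the smallest whole read numbers that give the TPM values put 39083836 to 59290255 reads on gene rows. All 11 plasma cell and myeloma markers passed the filter, with a summed level of 5479 to 8991 TPM. The T cell and stromal markers had no gene with a mean of 1 TPM, with sums of 0.101 to 0.952 TPM over the 4 T cell markers in the table and 0.250 to 0.879 TPM over 5 stromal markers. CD3D and CD2 were at 0 in every library. The 5 myeloid markers summed to 0.643 to 1.69 TPM (only CD14 passed the filter) and the 4 erythroid markers to 13.5 to 18.8 TPM (HBA1 and HBA2 passed). The 5 neuronal markers summed to 25.5 to 69.7 TPM, which came from ENO2, a glycolytic enzyme gene, while SYP, SNAP25, SYT1 and CHGA were each below 1 TPM on average. In bulk RNA, fewer cells of a type and less RNA per cell cannot be told apart.

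CITED2 was an abundant transcript, at 218, 202 and 242 TPM in the 3 DMSO libraries. The 1 h libraries had 146, 145 and 139 TPM, and the 3 h libraries 35.9, 37.4 and 39.7 TPM. At 6 h the values were 79.6, 79.8 and 82.9 TPM, and at 24 h 196, 202 and 196 TPM. The 1 h, 3 h and 6 h libraries all lay below every DMSO library and did not overlap each other, whereas 1 of the 24 h libraries reached the lowest DMSO library. From lowest to highest the order was 3 h, 6 h, 1 h, 24 h and DMSO, and only 24 h and DMSO overlapped. The share of all tested genes whose groups separate in this way was not counted, so separations here and below only describe the values.

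The mean level of CITED2 went from 221 ± 20.1 TPM (SD, n = 3) in DMSO to 143 ± 3.47 TPM at 1 h and 37.7 ± 1.91 TPM at 3 h, or 64.9% and 17.1% of the DMSO mean. At 6 h it was 80.8 ± 1.81 TPM, 36.6% of DMSO and still 2.73-fold lower. The log2 fold change at 6 h, on the log2(TPM + 1) scale used throughout, was -1.43 (95% interval -1.55 to -1.32, adjusted p = 1.69e-11, limma over all tested genes with Benjamini-Hochberg adjustment). The 24 h level of 198 ± 3.77 TPM was 89.7% of DMSO, a log2 fold change of -0.15 (-0.27 to -0.034, adjusted p = 0.0231, limma). That last call did not hold with some libraries left out, with adjusted p = 0.0647 without KB528 24 h replicate 1, 0.0606 without KB528 24 h replicate 3 and 0.133 (log2 fold change -0.083) without DMSO replicate 3, nor with spike-in scaling (-0.17, adjusted p = 0.560). It held and was larger without DMSO replicate 2 (-0.21, adjusted p = 0.00232), with median-ratio scaling (-0.34, adjusted p = 2.86e-06) and with voom on the recovered reads (-0.22, adjusted p = 6.96e-05). CITED2 rose by 1.28 on the log2 scale between 6 h and 24 h (1.16 to 1.40, adjusted p = 9.30e-11, limma).

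SERTAD3 was present at a lower level, 7.45, 8.14 and 8.21 TPM in DMSO. It was at 2.35, 3.33 and 2.62 TPM at 1 h and at 4.12, 3.79 and 4.21 TPM at 3 h. The 6 h libraries had 9.72, 10.5 and 10.1 TPM and the 24 h libraries 10.5, 10.5 and 9.98 TPM. Its lowest values thus came at 1 h, and the 3 h libraries lay between those of 1 h and DMSO with no overlap. Every library of 6 h and 24 h was above every DMSO library, and those of 6 h and 24 h overlapped each other. Of all tested genes 44.4% were called higher at 6 h and 56.1% at 24 h.

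As means, SERTAD3 stood at 7.93 ± 0.422 TPM in DMSO, 2.77 ± 0.503 TPM (34.9%) at 1 h and 4.04 ± 0.220 TPM (50.9%) at 3 h. It then passed its DMSO level, at 10.1 ± 0.411 TPM (128%) at 6 h and 10.3 ± 0.313 TPM (130%) at 24 h. The log2 fold changes were 0.32 at 6 h (0.14 to 0.49, adjusted p = 0.00269) and 0.34 at 24 h (0.17 to 0.52, adjusted p = 0.00137, limma). Neither call held under every scaling. Median-ratio scaling moves the 6 h values of all genes by -0.16 and their 24 h values by -0.19 on the log2 scale, and under it the changes were 0.17 (adjusted p = 0.0721) and 0.18 (adjusted p = 0.0651). Spike-in scaling ended the call at 24 h (0.33, adjusted p = 0.190) and gave 0.49 at 6 h (adjusted p = 0.0266). Between 6 h and 24 h the difference was 0.029 (-0.14 to 0.20, adjusted p = 0.771, limma).

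ZNF217 was at 16.9, 13.5 and 18.9 TPM in DMSO, the widest spread among the 4 genes relative to the mean. At 1 h it was at 6.02, 6.71 and 6.67 TPM, and at 3 h at 4.03, 3.75 and 4.75 TPM. The 6 h libraries had 13.0, 12.8 and 13.4 TPM and the 24 h libraries 23.5, 21.9 and 22.3 TPM. In order the groups were 3 h, 1 h, 6 h, DMSO and 24 h, with no overlap between neighbours, although the highest 6 h library was close to the lowest DMSO library. All 3 libraries of 24 h were above all 3 of DMSO, at a time when 56.1% of all tested genes were called higher.

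The mean of ZNF217 was 16.4 ± 2.73 TPM in DMSO, 6.47 ± 0.389 TPM (39.3%) at 1 h and 4.18 ± 0.518 TPM (25.4%) at 3 h. By 6 h it stood at 13.0 ± 0.288 TPM (79.3%), for a log2 fold change of -0.30 (-0.50 to -0.097, adjusted p = 0.0114, limma). Without DMSO replicate 3 the value at 6 h was -0.20 (adjusted p = 0.0654), and with spike-in scaling -0.12 (adjusted p = 0.630), while median-ratio scaling gave -0.45 (adjusted p = 0.000101). At 24 h the mean was 22.6 ± 0.827 TPM (137% of DMSO), with a log2 fold change of 0.45 (0.24 to 0.65, adjusted p = 0.000700, limma), which spike-in scaling left at 0.43 but no longer called (adjusted p = 0.0903) and median-ratio scaling put at 0.27 (adjusted p = 0.00656). ZNF217 rose by 0.75 between 6 h and 24 h (0.54 to 0.95, adjusted p = 5.72e-06, limma).

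RAB3A was at 8.91, 9.14 and 10.7 TPM in DMSO. It was at 2.48, 3.12 and 3.05 TPM at 1 h, its lowest, and at 4.43, 3.97 and 3.93 TPM at 3 h. The 6 h libraries had 6.40, 6.94 and 7.37 TPM and the 24 h libraries 7.64, 8.95 and 8.67 TPM. Each time after 1 h was higher than the one before it with no overlap, and only 24 h and DMSO overlapped.

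In means, RAB3A went from 9.57 ± 0.951 TPM in DMSO to 2.88 ± 0.349 TPM (30.1%) at 1 h and 4.11 ± 0.280 TPM (43.0%) at 3 h. At 6 h it was at 6.90 ± 0.487 TPM (72.1%), a log2 fold change of -0.42 (-0.60 to -0.23, adjusted p = 0.000530, limma), which spike-in scaling made -0.25 (adjusted p = 0.284). At 24 h it was at 8.42 ± 0.689 TPM (87.9%), and the log2 fold change of -0.17 (-0.35 to 0.019, adjusted p = 0.0984, limma) did not pass the test, while median-ratio scaling gave -0.33 (adjusted p = 0.00215) and voom on the recovered reads -0.25 (adjusted p = 0.0173). RAB3A rose by 0.25 between 6 h and 24 h (0.068 to 0.44, adjusted p = 0.0179, limma). That call was lost with spike-in scaling (0.067, adjusted p = 0.814) and without KB528 24 h replicate 2 (0.0751), KB528 24 h replicate 3 (0.0569) or KB528 6 h replicate 1 (0.0785), these 3 being adjusted p-values.

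**Figure D1:**
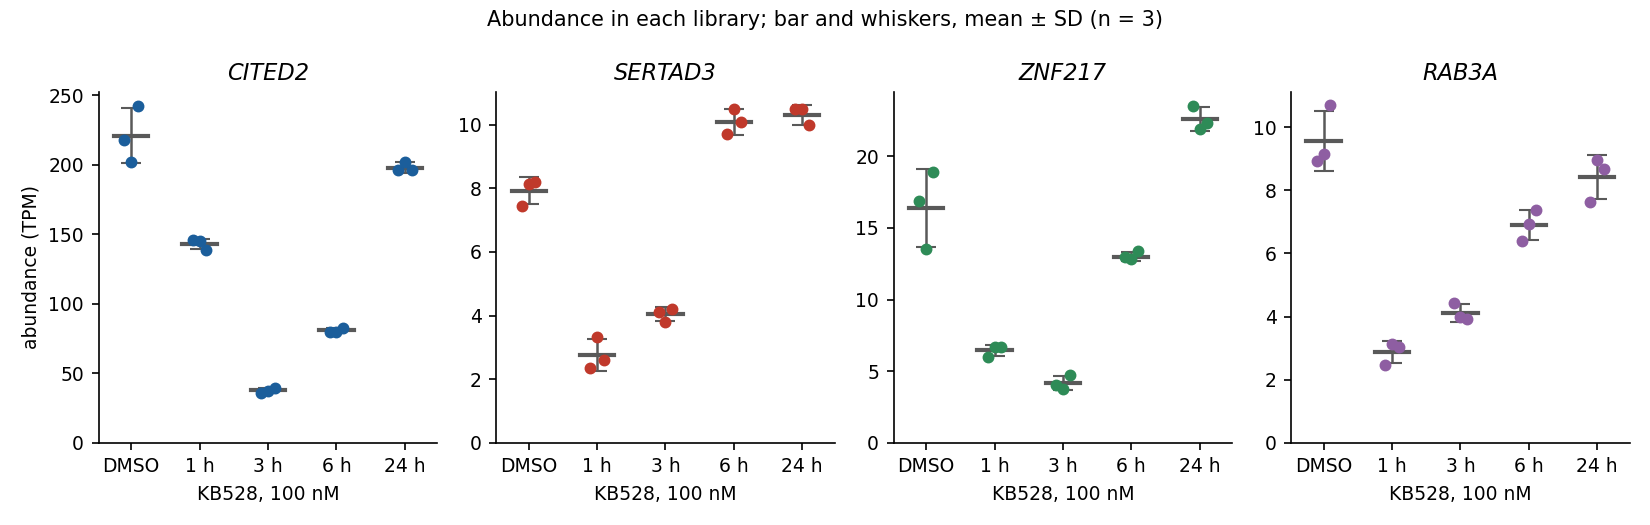
Level of each gene in TPM (vertical axis, linear) in every library by group (DMSO, then 1, 3, 6 and 24 h of KB528), with points for the 3 libraries of a group and bars for mean ± SD. CITED2 and ZNF217 were lowest at 3 h, SERTAD3 and RAB3A at 1 h, and SERTAD3 and ZNF217 ended above their DMSO libraries at 24 h.

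Set side by side, the early changes differed in timing among the 4 genes. On the log2 scale CITED2 was at -0.62 (SE 0.056) at 1 h and -2.51 at 3 h, and ZNF217 at -1.21 (SE 0.096) and -1.75. SERTAD3 was at -1.25 (SE 0.081) at 1 h and -0.83 at 3 h, and RAB3A at -1.45 (SE 0.087) and -1.05. So CITED2 and ZNF217 went on down after 1 h while SERTAD3 and RAB3A were already on the way back at 3 h. Both times chose the genes, so nothing is read from the size of these falls. Among all tested genes 7.57% were called lower and 15% higher at 1 h, and 32.0% lower and 24.9% higher at 3 h.

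The number of reads behind these levels varied with abundance. CITED2 rested on 2321 to 13898 recovered reads per library and ZNF217 on 627 to 3083. SERTAD3 rested on 96 to 562 reads and RAB3A on 97 to 441, so that counting alone gave an SD of 10.2% for the shallowest library of each at 1 h, against 2.08% for CITED2 and 3.99% for ZNF217 at 3 h. These figures cover counting error only. In DMSO CITED2 was above 94.8% of tested genes in TPM, ZNF217 above 50.8%, RAB3A above 37.4% and SERTAD3 above 33.3%. Even at 3 h the TPM level of CITED2 was higher than the DMSO level of any of the other 3 genes.

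At 6 h 3 of the 4 genes were called lower than DMSO (CITED2, ZNF217 and RAB3A), where 24.5% of all tested genes were called lower, and SERTAD3 was called higher, as were 44.4% of all tested genes. At 24 h SERTAD3 and ZNF217 were called higher (56.1% of all genes were), CITED2 was called lower (15.2% were) and RAB3A was not called. Between 6 h and 24 h CITED2, ZNF217 and RAB3A were called higher, as were 41.0% of all tested genes, with 26.0% called lower. The balance moved with the scaling, since median-ratio scaling called 1852 genes higher and 1779 lower at 1 h, 3852 and 4590 at 6 h, and 4618 and 3485 at 24 h, where 1802 and 908, 5327 and 2945, and 6738 and 1826 were called as deposited. Spike-in scaling called 411 higher and 2523 lower at 3 h against 2991 and 3836, 4118 and 995 at 6 h, and 1640 and 2037 between 6 h and 24 h against 4925 and 3122. On the deposited scale the median log2 fold change of all tested genes was 0.12 at 6 h, 0.23 at 24 h and 0.078 between 6 h and 24 h. An increase of the size seen for SERTAD3 at 24 h (0.34) was thus little above the median gene, and the increase of ZNF217 (0.45) somewhat more.

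**Figure D2:**
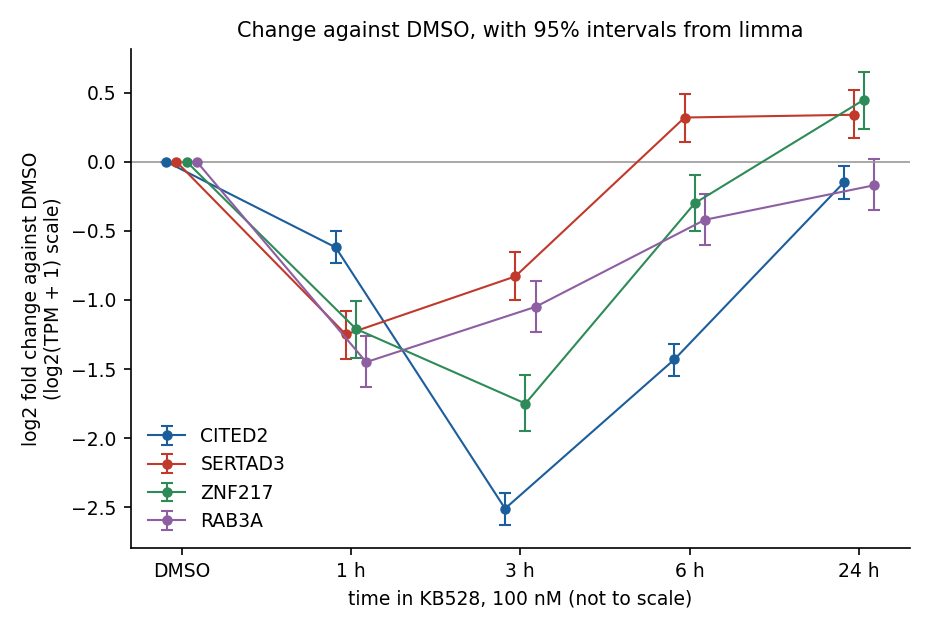
Log2 fold change against DMSO on the log2(TPM + 1) scale (vertical axis) for each gene at 1, 3, 6 and 24 h (horizontal axis, not to scale), with bars for the 95% interval from the fit over all 15 libraries. CITED2 had the deepest point (-2.51 at 3 h), and SERTAD3 was the only one of the 4 above 0 at 6 h.

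The return of each gene was expressed as the share of its largest fall, on the log2 scale, that had been regained, where 100% is the DMSO mean. CITED2 had regained 43.0% ± 1.26 (SD, n = 3 treated libraries) at 6 h and 94.0% ± 1.08 at 24 h. Each SD of a share holds the DMSO mean and the largest fall fixed, so that their own spread is left out. RAB3A had regained 71.1% ± 6.18 at 6 h and 88.5% ± 7.44 at 24 h. ZNF217 had regained 82.8% ± 1.69 at 6 h and, past its DMSO level, 126% ± 2.88 at 24 h. SERTAD3 was past its DMSO level at both times, with 125% ± 4.25 and 128% ± 3.20. On the deposited scale the 4 genes thus returned by different courses, with SERTAD3 back by 6 h and ZNF217 between 6 h and 24 h. CITED2 and RAB3A were close to DMSO at 24 h, with means still below it. The shares at 6 h moved with the scaling. Spike-in scaling put ZNF217 at 93.6% and RAB3A at 83.4% at 6 h and called neither lower there. Median-ratio scaling put them at 74.2% and 62.4%.

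These shares were set beside those of all 206 genes averaging 5 TPM or more that were called lower by at least 1 log2 unit at 1 h or 3 h, a group that holds all 4 genes. Of the 206, 199 were lowest at 3 h and 7 at 1 h, the 7 being TXNIP, DDIT4, CISH, SERTAD3, RAB3A and the short RNA genes MIR6510 and SNORA76C, whose reads are uncertain in this assay. SERTAD3 and RAB3A thus belonged to the few that were lowest at 1 h. In size of the largest fall 3 of the 206 exceeded CITED2, 25 exceeded ZNF217, 62 exceeded RAB3A and 111 exceeded SERTAD3. These counts describe how the genes were chosen and have no test.

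Over the 206 genes the median share regained was 44.7% at 6 h (quartiles 6.16% and 76.6%) and 97.2% at 24 h (quartiles 68.8% and 121%). At 6 h 108 of them had a higher share than CITED2, 58 a higher share than RAB3A, 40 a higher share than ZNF217 and 4 a higher share than SERTAD3. At 24 h the numbers were 106 for CITED2, 121 for RAB3A, 39 for ZNF217 and 37 for SERTAD3. CITED2 was near the middle of the group at both times.

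Of the 206 genes 170 were called lower than DMSO at 6 h, 29 were not called and 7 were called higher, namely SERTAD3, DDIT4, PSRC1, BHLHE41, TLR1, TLR6 and ST8SIA4. All 7 were also called higher at 24 h. SERTAD3 was therefore in a small minority at 6 h, although its call was lost with median-ratio scaling (0.17, adjusted p = 0.0721, limma). At 24 h 82 of the 206 were called lower, as CITED2 was, 67 higher, as SERTAD3 and ZNF217 were, and 57 were not called, as RAB3A was. The sequence shown by ZNF217, lower at 6 h and higher at 24 h, was shared by 43 of the 206. Between 6 h and 24 h 177 were called higher and 7 lower. Of all tested genes 24.5% were called lower and 44.4% higher at 6 h, and 15.2% and 56.1% at 24 h. From 6 h to 24 h 41.0% of them were called higher and 26.0% lower. The 206 were chosen by a fall against the same DMSO libraries. The genes named here beside the 4 were picked after their values were seen.

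**Figure D3:**
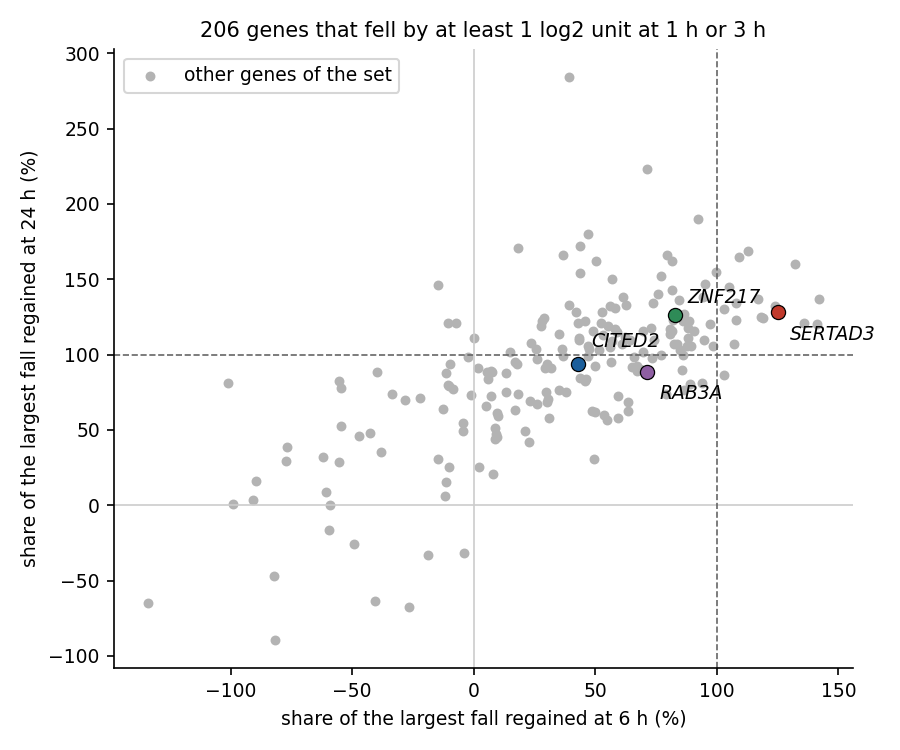
Share of the largest fall regained at 6 h (horizontal axis, percent) against that at 24 h (vertical axis, percent) for the 206 genes called lower by at least 1 log2 unit at 1 h or 3 h (grey points), with the 4 genes in colour. SERTAD3 lies above 100% on both axes, ZNF217 on the vertical axis only, and CITED2 and RAB3A below 100% on both.

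The genes whose course over the 15 libraries was most like each of the 4 were found by Pearson correlation of log2(TPM + 1), among 1199 candidates with a mean of at least 5 TPM and group means that spanned at least 1 log2 unit. The values are descriptions with no p, since libraries of a group share their treatment. These genes were picked for likeness over all 15 libraries, so shared low and high points, here and below, follow largely from that choice. For CITED2 they were MARCH9 (r = 0.989), ARHGEF2 (0.988), APOL2 (0.988), LCN10 (0.988) and KLHL6 (0.985). MARCH9, which encodes a membrane-bound ubiquitin ligase, was at 39.1 TPM in DMSO and then, in order of time, at 31.1, 13.6, 23.5 and 40.3 TPM, a course with the same low point at 3 h. ARHGEF2, which encodes a microtubule-associated activator of RhoA, was at 111, 89.4, 39.7, 57.7 and 114 TPM in the same order.

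For SERTAD3 the most alike were PHF23 (r = 0.971), ZC3H10 (0.951), DDIT4 (0.950), NAB2 (0.942) and ZNF691 (0.934). DDIT4, which encodes a stress-induced inhibitor of mTORC1, was at 101 TPM in DMSO and 31.5, 76.0, 164 and 155 TPM at the 4 treated times, so that it too was lowest at 1 h and ended above DMSO. NAB2 encodes a corepressor of EGR transcription factors, and was at 5.61, 3.09, 4.07, 7.20 and 7.17 TPM. For ZNF217 they were LOC728743 (0.977), CCR1 (0.974), ANKZF1 (0.970), MIEF2 (0.954) and TOR4A (0.952). CCR1, which encodes a chemokine receptor, was at 90.2, 59.1, 35.6, 79.3 and 110 TPM, with its low point at 3 h and its highest mean at 24 h.

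For RAB3A the correlations were lower, with TXNIP (r = 0.913), SERTAD3 (0.909), CISH (0.895), CCDC71 (0.861) and ZNF217 (0.854). TXNIP, which encodes thioredoxin-interacting protein, was at 177 TPM in DMSO and 34.9, 84.4, 186 and 142 TPM from 1 h to 24 h. CISH, a feedback inhibitor of cytokine signalling through STAT5, was at 12.8, 4.99, 8.38, 9.17 and 9.58 TPM. Among the 4 genes themselves r was 0.91 for SERTAD3 with RAB3A, 0.85 for SERTAD3 with ZNF217, 0.85 for ZNF217 with RAB3A, 0.76 for CITED2 with ZNF217, 0.48 for CITED2 with RAB3A and 0.33 for CITED2 with SERTAD3. CITED2 thus stood furthest from SERTAD3.

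The close relatives of the 4 genes did not share 1 course. SERTAD1, a SERTA-domain gene that is known as a CDK4 and E2F coregulator and is the next tested gene beside SERTAD3 on chromosome 19, moved in the other direction. It rose from 14.1 ± 1.09 TPM in DMSO to 28.3 ± 1.19 TPM at 1 h (log2 fold change 0.95, adjusted p = 1.67e-08, limma) and 41.8 ± 1.84 TPM at 3 h (1.50, adjusted p = 2.22e-11). It was at 27.0 ± 0.813 TPM at 6 h (0.89, adjusted p = 4.56e-09) and below DMSO at 24 h, at 12.4 ± 0.417 TPM (-0.17, adjusted p = 0.0155, or 0.510 with spike-in scaling). At 24 h SERTAD1 was called lower and SERTAD3 higher, both calls being lost with spike-in scaling.

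SERTAD2 had a DMSO mean of 11.6 ± 2.29 TPM and a 1 h mean of 11.2 ± 0.501 TPM (adjusted p = 0.869, limma). It fell to 7.47 ± 1.04 TPM at 3 h (log2 fold change -0.56, adjusted p = 0.000381) and was higher than DMSO at 24 h, at 15.5 ± 0.769 TPM (0.40, adjusted p = 0.00348, or 0.130 with spike-in scaling). SERTAD4 was below 1 TPM on average and was not tested. RAB3D, the RAB3 gene known from secretory cells outside the nervous system, was at 10.1 ± 0.890 TPM in DMSO, close to RAB3A on this per-length scale. It was at 9.39 ± 0.439 TPM at 1 h (-0.088, adjusted p = 0.327, limma), when RAB3A was at 30.1% of DMSO, and fell to 5.38 ± 0.250 TPM at 3 h (-0.79, adjusted p = 6.00e-08). At 24 h it was at 9.52 ± 0.241 TPM (-0.069, adjusted p = 0.336), and median-ratio scaling called it lower there (-0.24). RAB3B, RAB3C, CITED1 and CITED4 were all below 1 TPM on average and were not tested.

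**Figure D4:**
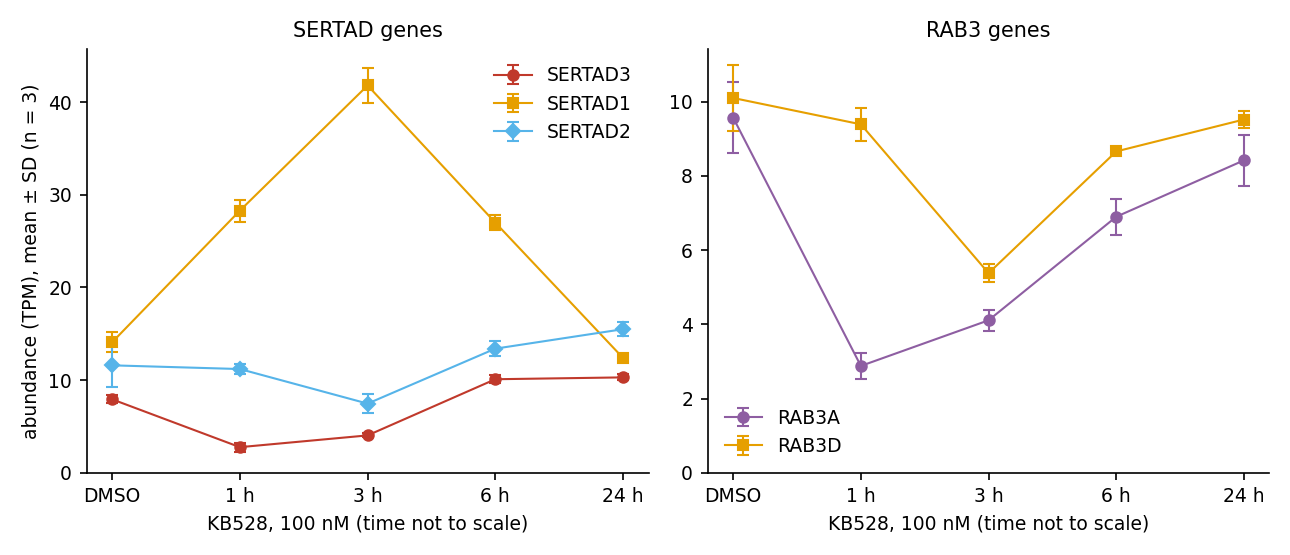
Mean level ± SD in TPM (vertical axis, linear; n = 3 libraries) of SERTAD3 beside SERTAD1 and SERTAD2, and of RAB3A beside RAB3D, at 0 h (DMSO), 1, 3, 6 and 24 h of KB528. SERTAD1 was highest at 3 h, when SERTAD3 was still low, and RAB3D was lowest at 3 h, after RAB3A had begun to return.

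The partners and regulators of CITED2 in the hypoxia pathway were read as a list of 16 genes, of which 13 were tested. At 1 h 4 rose and 1 fell, at 3 h 2 rose and 5 fell, at 6 h 8 rose and 4 fell, and at 24 h 9 rose and 3 fell. Of all tested genes 15% were called higher and 7.57% lower at 1 h, and 24.9% and 32.0% at 3 h. At 6 h 44.4% of all tested genes were called higher and 24.5% lower, and at 24 h 56.1% and 15.2%. With spike-in scaling the 5 list genes called at 3 h were all lower, 7 were higher and 2 lower at 6 h, and 3 were higher and 1 lower at 24 h. Their median log2 fold change on the deposited scale was 0.29 at 6 h and 0.37 at 24 h, beside 0.12 and 0.23 over all tested genes. EP300, which encodes the enzyme that KB528 targets, rose from 22.1 ± 4.97 TPM to 48.4 ± 4.73 TPM at 6 h (log2 fold change 1.12, adjusted p = 4.86e-06, limma) and was at 32.3 ± 2.09 TPM at 24 h (0.55, adjusted p = 0.00278). CREBBP rose alongside it, from 16.6 ± 3.40 to 41.8 ± 3.03 TPM at 6 h (1.30, adjusted p = 6.50e-07) and 27.2 ± 2.15 TPM at 24 h. At 6 h, CITED2, whose product binds both, was still at 36.6% of DMSO.

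TFAP2C, which encodes an AP-2 factor of the family that CITED2 coactivates, was lowest later. It went from 16.6 ± 2.44 TPM to 20.7 ± 0.236 at 1 h, 7.33 ± 1.05 at 3 h, 2.05 ± 0.254 at 6 h (log2 fold change -2.53, adjusted p = 1.75e-11, limma) and 4.10 ± 0.182 TPM at 24 h (-1.78, adjusted p = 1.40e-09). SMAD3, a TGF-beta signal transducer whose product is also bound by CITED2, was at 3.37 ± 0.297 TPM in DMSO, 1.08 ± 0.0207 TPM at 6 h (-1.07, adjusted p = 1.44e-08) and 2.64 ± 0.321 TPM at 24 h (-0.27, adjusted p = 0.00630, or 0.228 with spike-in scaling). CITED2 was lowest at 3 h and these 2 genes at 6 h.

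The list of 26 HIF target genes was tested whole. At 1 h 7 rose and 4 fell, at 3 h 5 rose and 14 fell, at 6 h 6 rose and 13 fell, and at 24 h 3 rose and 14 fell. Among all tested genes 15% were called higher and 7.57% lower at 1 h, and 24.9% and 32.0% at 3 h. At 6 h 44.4% of all tested genes were called higher and 24.5% lower, and at 24 h 56.1% and 15.2%. The list median log2 fold change was -0.14 at 3 h, -0.13 at 6 h and -0.14 at 24 h. Those of all genes were -0.042, 0.12 and 0.23. Under spike-in scaling the 6 h median was 0.059, with 2 genes higher and 3 lower, where that of all tested genes was 0.29. At 24 h it was -0.15, with 2 higher and 4 lower, beside 0.21 over all tested genes. Median-ratio scaling gave -0.29 at 6 h, with 2 higher and 19 lower, and -0.32 at 24 h, with 3 higher and 21 lower. Its medians over all tested genes were -0.030 and 0.057. The list median was thus below that of all tested genes at both times under each of these scalings. ADM, which encodes the vasodilator peptide adrenomedullin, fell from 44.5 ± 2.32 TPM to 18.5 ± 0.399 at 3 h (-1.22, adjusted p = 1.64e-11, limma) and was at 24.3 ± 0.741 TPM at 24 h. BHLHE40, a circadian and hypoxia-induced repressor gene, fell from 11.2 ± 1.85 to 4.66 ± 0.171 TPM at 24 h (-1.10, adjusted p = 3.42e-07). Neither had returned to its DMSO level at 24 h.

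Other HIF targets took other courses. NDRG1, a stress-response gene, rose from 36.6 ± 2.72 to 65.1 ± 0.217 TPM at 1 h (0.82, adjusted p = 4.48e-08, limma) and was at 26.4 ± 0.462 TPM at 24 h (-0.45, adjusted p = 3.42e-06). ANKRD37 rose from 9.35 ± 1.25 to 17.9 ± 1.52 TPM at 1 h (0.88, adjusted p = 1.91e-05) and was at 5.19 ± 0.0157 TPM at 6 h (-0.74, adjusted p = 1.28e-05). SLC2A3, which encodes a glucose transporter, fell from 3.92 ± 0.216 to 1.80 ± 0.166 TPM at 3 h (-0.81, adjusted p = 3.72e-07) and rose to 7.28 ± 0.144 TPM at 6 h (0.75, adjusted p = 5.38e-07). With spike-in scaling the 24 h call of NDRG1 was lost (adjusted p = 0.0669).

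Of 12 tested genes of the SERTAD family and its partners, SERTAD3 left out, 5 rose and 3 fell at 3 h, 8 rose and 1 fell at 6 h, and 9 rose and 2 fell at 24 h. At 1 h 3 rose and 0 fell by limma, with 5 higher and 1 lower at an unadjusted p under 0.05, and 3 higher and 1 lower by voom on the recovered reads. Among all tested genes 15% were called higher and 7.57% lower at 1 h, and 24.9% and 32.0% at 3 h. At 6 h 44.4% of all tested genes were called higher and 24.5% lower, and at 24 h 56.1% and 15.2%. The list median log2 fold change was 0.38 at 6 h and 0.27 at 24 h, beside 0.12 and 0.23 over all tested genes. With median-ratio scaling the medians were 0.22 and 0.083, beside -0.030 and 0.057 over all tested genes. That scaling called 6 list genes higher and 3 lower at 24 h, and with spike-in scaling the 2 genes called at 24 h were both higher.

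Among 14 tested genes of the ZNF217 corepressor complex and its partners 2 rose and 10 fell at 3 h, 5 rose and 4 fell at 6 h and 10 rose at 24 h, when 0 fell by limma, by voom or at an unadjusted p under 0.05. At 1 h 4 rose and 0 fell, with 7 higher and 0 lower at an unadjusted p under 0.05 and 6 higher and 0 lower by voom. Among all tested genes 15% were called higher and 7.57% lower at 1 h, and 24.9% and 32.0% at 3 h. At 6 h 44.4% of all tested genes were called higher and 24.5% lower, and at 24 h 56.1% and 15.2%. The list median was -0.18 at 3 h and 0.31 at 24 h, beside -0.042 and 0.23 over all tested genes. With median-ratio scaling 4 list genes were higher and 7 lower at 6 h, and 6 and 2 at 24 h. With spike-in scaling the 5 called at 3 h were all lower and the 2 called at 24 h were both higher.

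In that list PHF21A, which encodes a CoREST-complex subunit that reads unmethylated histone H3 lysine 4, fell from 4.90 ± 0.785 to 2.23 ± 0.223 TPM at 3 h (-0.86, adjusted p = 7.16e-07, limma). It was at 4.25 ± 0.280 TPM at 6 h (adjusted p = 0.108) and rose to 8.87 ± 0.349 TPM at 24 h (0.75, adjusted p = 2.25e-06). ZNF516, a zinc finger gene of the same complex, fell from 4.83 ± 0.822 to 2.15 ± 0.176 TPM at 3 h (-0.88, adjusted p = 3.61e-06) and was at 5.43 ± 0.459 TPM at 24 h (0.15, adjusted p = 0.201). Both were lowest at 3 h, as ZNF217 was, but unlike ZNF217, which was at 39.3% of DMSO at 1 h, both had means above DMSO at 1 h, of 6.56 ± 0.269 TPM for PHF21A and 6.13 ± 0.315 TPM for ZNF516.

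Among 14 tested regulators, effectors and related secretory genes of RAB3, 1 rose and 8 fell at 3 h, 5 rose and 5 fell at 6 h, and 9 rose and 3 fell at 24 h. At 1 h, when RAB3A was lowest, 0 were called in either direction by limma, 1 was higher and 0 lower at an unadjusted p under 0.05, and 0 were higher and 1 lower by voom. Among all tested genes 15% were called higher and 7.57% lower at 1 h, and 24.9% and 32.0% at 3 h. At 6 h 44.4% of all tested genes were called higher and 24.5% lower, and at 24 h 56.1% and 15.2%. Median-ratio scaling gave 3 list genes higher and 7 lower at 6 h, and 7 and 4 at 24 h. With spike-in scaling the 3 list genes called at 3 h were all lower, with 4 higher and 2 lower at 24 h. RAB3IL1, which encodes a guanine nucleotide exchange factor for RAB3A, fell from 33.2 ± 1.44 to 16.2 ± 1.54 TPM at 3 h and 8.85 ± 0.374 TPM at 6 h (-1.80, adjusted p = 9.45e-12, limma) and was at 17.3 ± 0.762 TPM at 24 h (-0.90, adjusted p = 2.39e-08). RIMS3, which encodes a presynaptic active-zone protein, fell from 9.74 ± 1.36 to 4.0 ± 0.375 TPM at 6 h (-1.10, adjusted p = 2.98e-07).

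The genes next to the 4 on the chromosome, by the order of tested genes in RefSeq, were examined for the same early loss. Beside CITED2, TXLNB was at 2.55, 2.42 and 0.602 TPM in DMSO, at 1 h and at 3 h, and VTA1 at 22.4, 21.5 and 24.9 TPM. Beside SERTAD3, besides SERTAD1, BLVRB was at 177, 153 and 136 TPM. Beside ZNF217, ZFP64 was at 8.21, 8.02 and 7.74 TPM and CYP24A1 at 12.4, 13.4 and 6.88 TPM. Beside RAB3A, IFI30 was at 871, 814 and 774 TPM and JUND at 172, 396 and 331 TPM. At 1 h the means of 5 of the 8 neighbours were within 10% of DMSO. The share of all tested genes within 10% was not counted, and 15% of them were called higher and 7.57% lower. At 3 h, when CITED2 and ZNF217 were lowest, the log2 fold changes were -1.14 for TXLNB and -0.76 for CYP24A1. Those of VTA1 and ZFP64 were 0.15 and -0.074. TXLNB was then at 0.525 TPM at 6 h and 3.75 TPM at 24 h, and CYP24A1 at 19.8 and 20.6 TPM.

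RAB3A overlaps MPV17L2, which is annotated on the opposite strand, and the sources used here do not say whether the counting used strand, so that reads of the pair may be shared. The DMSO mean of MPV17L2, 53.8 ± 1.72 TPM, compared with 55.0 ± 0.240 TPM at 1 h (0.031, adjusted p = 0.670, limma), when RAB3A was at its lowest. It was at 68.2 ± 3.25 TPM at 6 h and 40.3 ± 1.63 TPM at 24 h. ZNF217 overlaps the antisense gene ZNF217-AS1, for which no row was analysed here.

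The 4 genes had fewer exons than the median tested gene, and all but ZNF217 had a shorter transcript. By the longest protein-coding GENCODE transcript, CITED2 and SERTAD3 have 2 exons each, RAB3A 5 and ZNF217 6, where the median of 10314 tested protein-coding genes was 9. Transcript lengths were 2354 bases for CITED2, 1734 for SERTAD3, 1528 for RAB3A and 5796 for ZNF217, with a median of 3370 over those genes. Over 175 of the genes that fell early the medians were 6 exons, the number in ZNF217, and 3579 bases. Fewer exons than the median tested gene were thus not particular to the 4. The pentamer ATTTA, the core of AU-rich elements known from unstable mRNAs, was counted in the 3′ UTR after the data had been seen. It occurred 3 times in CITED2 (2.26 per kb), 2 times in SERTAD3 (3.10), 7 times in ZNF217 (3.15) and 4 times in RAB3A (5.83), where the median was 1.64 per kb over the tested genes and 1.49 over 175 of the genes that fell early. Of the tested protein-coding genes 61.3% had fewer per kb than CITED2, 74.7% than SERTAD3, 75.5% than ZNF217 and 94.4% than RAB3A. RNA decay was not measured.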

How the data were processed

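The authors deposited 1 table of TPM values for strand-specific mRNA sequencing of 15 libraries. Per the submitters' processing notes, STAR, featureCounts, FastQC and MultiQC were used with the build hg19. The sources used here do not say how counts became TPM. Columns named as untreated at 0 h were matched to the DMSO samples by time and replicate number, and the 92 spike-in rows were left out of tests. The 12002 genes whose mean reached 1 TPM entered limma 3.58.1 (R 4.3.3) on the log2(TPM + 1) scale, with lmFit, eBayes and a variance trend over all 15 libraries, with Benjamini-Hochberg adjustment and a threshold of 0.05. This scale understates changes of low genes. The script was tested on simulated data. Whole reads were recovered from the steps of TPM values in 22512 of 22516 rows above 0 (tolerance 0.02 reads). They describe depth and entered the voom fit, an alternative to the main fit. Python 3.11.15 made tables and figures.

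Named genes were the 4 genes, their family members, the 5 most correlated genes of each, up to 5 genes per list with group means spanning at least 1 log2 unit, and the tested neighbours. A result that this rule would name is not reported here. The genes and lists were chosen with earlier results of these data known. Gene order and promoters came from RefSeq (98.6% of tested names matched) and transcripts from GENCODE. Alternatives were other pseudocounts, filters and scalings, no variance trend, only the groups compared, a replicate block and each replicate left out.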

Additional observations from a re-analysis of the deposited data

Results flagged for a closer look

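For 3 of the 4 genes the change against DMSO differed between 6 h and 24 h by a test of the difference itself, in which the shared DMSO libraries cancel. Of all tested genes 41.0% were called higher and 26.0% lower between these times, so a call there was common. CITED2 was higher at 24 h than at 6 h by 1.28 on the log2 scale (adjusted p = 9.30e-11, limma). ZNF217 was higher by 0.75 (adjusted p = 5.72e-06, limma), and moved from below DMSO at 6 h to above it at 24 h. RAB3A was higher by 0.25 (adjusted p = 0.0179, limma), a call that was lost when any of 3 single libraries was left out.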

How the results depend on the processing

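Over 12 tests of the 4 genes and 16 settings each (192 values), 174 kept direction and side of the threshold, 15 kept direction and lost their call, 2 gained a call and 1 turned. With spike-in scaling, whose factors vary within groups, the log2 differences that turned or lost their call were -0.16 for SERTAD3 between 6 h and 24 h, -0.12 for ZNF217 and -0.25 for RAB3A at 6 h, -0.17 for CITED2, 0.33 for SERTAD3 and 0.43 for ZNF217 at 24 h, and 0.067 for RAB3A between 6 h and 24 h. Genes it called higher numbered 348 at 1 h, 411 at 3 h, 2439 at 24 h and 1640 between 6 h and 24 h, and genes it called lower 123, 2523, 657 and 2037, with 995 lower at 6 h. Median-ratio scaling gave SERTAD3 0.17 at 6 h and 0.18 at 24 h (calls lost) and RAB3A -0.33 at 24 h (call gained), and called 1779 genes lower at 1 h, 4590 at 6 h and 3485 at 24 h. With only the 2 groups compared, 1187 genes were called higher and 536 lower at 1 h. Voom on the recovered reads, chosen after seeing the data as was rescaling to gene rows alone, called 1713 lower at 1 h and RAB3A lower at 24 h (-0.25). With 1 replicate left out in turn, counts at 1 h ranged from 1042 to 2898 higher and 531 to 1022 lower, ZNF217 at 6 h from -0.43 to -0.20, CITED2 at 24 h from -0.21 to -0.083 and RAB3A between 6 h and 24 h from 0.21 to 0.31. The descriptive falls at 1 h and 3 h kept their direction in all 80 values, and 14 of 32 values of the share regained moved, for CITED2 at 6 h between 36.7% (median-ratio) and 54.4% (spike-in). The cause of these shifts was not tested. The labels tie the replicate numbers to no shared culture or day. In the deviations from group means 7 of 30 same-number pairs of libraries correlated above 0.1 (highest 0.43), against 8 of 60 other pairs (highest 0.218), so that most same-number pairs did not, and a fit with a replicate block changed no call of the 4 genes (RAB3A between 6 h and 24 h 0.25, adjusted p = 0.0116). Depth limits SERTAD3 and RAB3A most.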
